A study of Mus musculus with 8 samples.

Results

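The 33 genes described here are members of the nuclear receptor superfamily, chosen by name: every row of the deposited count tables whose Ensembl identifier carries a listed receptor symbol on the GRCm38 annotation, 33 of the 52636 genes in the tables. The study asked whether raising AGXT in hepatocytes changes diet-induced liver disease, where AGXT is the enzyme that turns glyoxylate into glycine and so keeps it from becoming oxalate. Liver RNA came from 8 wild-type male C57BL/6J mice, 4 injected at 7 weeks of age with AAV8-TBG-GFP as the control and 4 with AAV8-TBG-AGXT. AAV8 is an adeno-associated virus with a tropism for the liver, and TBG is a promoter active in hepatocytes, which limits expression of the transgene to that cell type. All 8 mice, the controls included, then ate the MASH diet, rich in fat, fructose and cholesterol, from 8 weeks of age for 24 weeks. No lean animals are part of these libraries, so every comparison is between mice on that diet. Animal numbers serve as names: mice 303, 311, 314 and 315 received AAV8-GFP, and mice 308, 309, 316 and 319 received AAV8-AGXT.

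Nuclear receptors are transcription factors, many of which are switched on by small fat-soluble ligands such as retinoic acid, thyroid hormone, steroids, oxysterols and fatty acids. Most bind DNA at copies of the half-site AGGTCA, alone, as pairs of one receptor, or as pairs with a retinoid X receptor (RXR), and then recruit coactivators or corepressors. In the liver they set hepatocyte identity, bile acid and lipid metabolism, fasting responses and the handling of hormones, and orphan receptors are those without an agreed natural ligand.

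The libraries held 17095433 to 28780140 read pairs on genes. In mouse 308 these were 56.3% of all tallied read pairs, the lowest share, against 62.4% to 69.1% in the others. The row of mouse Agxt held 163.8 ± 15.8 CPM in the AAV8-GFP group and 305.2 ± 98.3 CPM in the AAV8-AGXT group (SD, n = 4 each), where CPM are normalized counts-per-million, scaled by TMM factors that correct for library composition. This was a difference of 0.90 on the log2 scale (standard error 0.22, adjusted p = 0.0489 in edgeR). The vector carries the human gene, and whether its read pairs were counted on the mouse row was not tested.

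No receptor passed an adjusted p of 0.05 in either direction in edgeR. Of the 33 receptors, 29 had enough counts to be tested, and edgeR's quasi-likelihood test called 0 of them higher and 0 lower in AAV8-AGXT mice. Over all 15248 genes tested, 2.45% were called higher and 1.9% lower. At an unadjusted p under 0.05 there were 10 receptors, 7 higher and 3 lower, or 34.5% of those tested, where 26.1% of all genes had such a p. The Wald test of DESeq2 on the same counts called 5 receptors higher (Hnf4a, Nr5a2, Rxra, Thrb and Nr2c2) and 2 lower (Rarg and Nr4a3), beside 7.08% and 6.93% of all genes, shares well above those of edgeR. The limma-voom test called 2 higher, Rxra and Thrb, and 0 lower, beside 2.65% and 1.82% of all genes. The smallest adjusted p in edgeR belonged to Rxra at 0.0502, followed by Nr4a3 at 0.0528 and Thrb at 0.0537, just above the threshold.

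For 10 receptors every mouse of one group lay above every mouse of the other. In 7 of them the AAV8-AGXT mice were higher (Rxra, Thrb, Nr2c2, Hnf4a, Nr5a2, Nr3c2 and Nr2f2), beside 8.93% of all genes tested, and in 3 they were lower (Nr4a3, Rarb and Rarg), beside 7.63% of all genes. The median log2 fold change of the tested receptors was 0.11, with 17 above 0 and 12 below, and that of all genes was 0.02. Most differences were small: 23 of the 29 fitted fold changes were within 1.5 times, and the median size of the log2 fold change, 0.23, was near the 0.24 of all genes. These directions depended partly on the scaling. When counts were scaled by library totals alone, the median log2 fold change of all genes moved by -0.24 and the groups did not overlap for 2 receptors in the higher and 5 in the lower direction, beside 2.66% and 17.6% of all genes. On that scale edgeR called 0 receptors higher and 3 lower (Ppard, Rarb and Nr4a3), beside 0.944% and 5.62% of all genes, so lower calls became more frequent over the whole table as well.

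**Figure D1:**
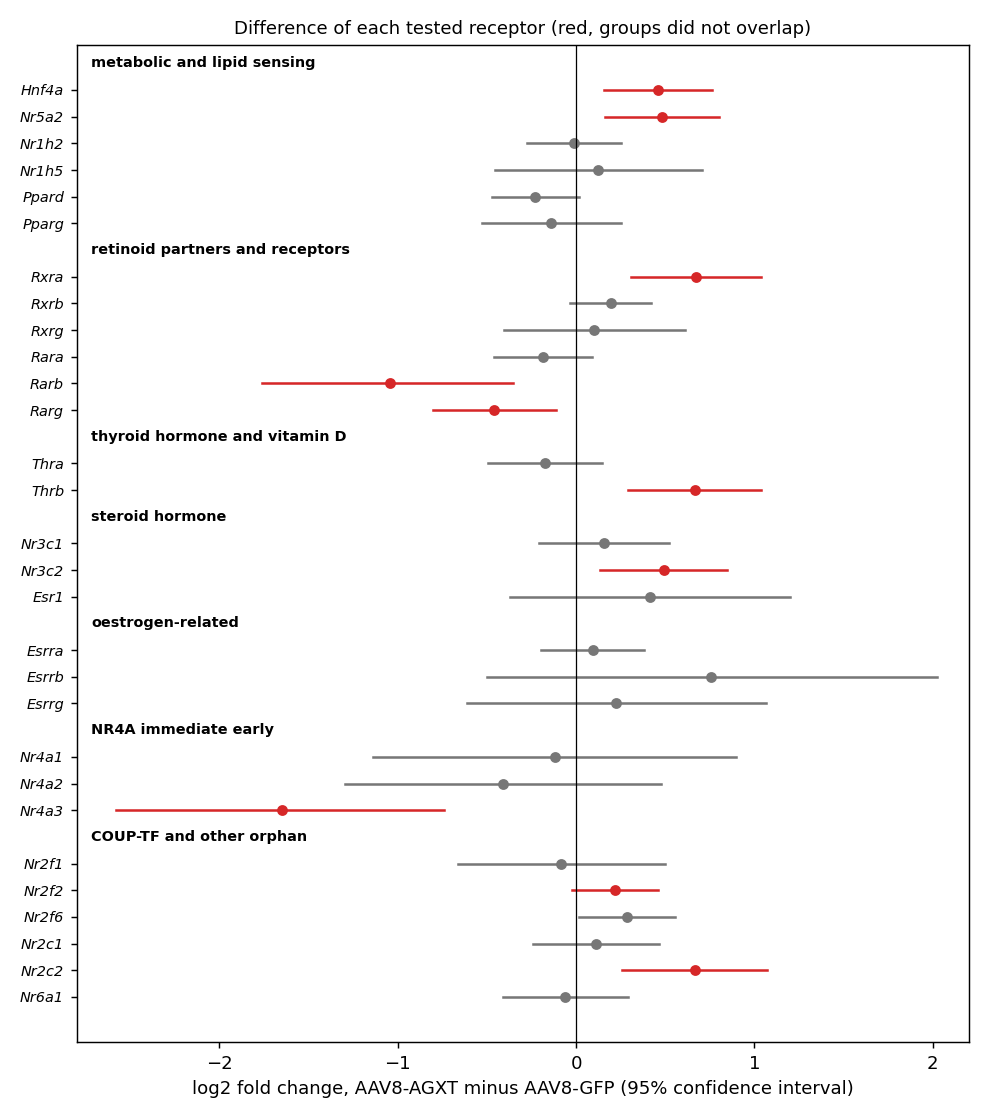
Fitted log2 fold change (AAV8-AGXT minus AAV8-GFP) of the 29 tested receptors with its 95% confidence interval, grouped by role; red marks the 10 receptors whose groups did not overlap. The intervals of Rxra, Thrb, Nr2c2, Hnf4a, Nr5a2, Nr3c2 and Nr2f6 lie above 0 and those of Nr4a3, Rarb and Rarg below 0, before adjustment for multiple tests.

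Whole liver mixes cell types, and in such RNA fewer cells of a type and less RNA per cell cannot be told apart. Of 6 hepatocyte markers, 1 rose (Cps1, a urea cycle enzyme, log2 fold change 0.96, adjusted p = 0.0279 in edgeR), all 6 had fold changes above 0, and their summed level was 45090 to 54320 CPM in the AAV8-GFP group and 55320 to 77260 CPM in the AAV8-AGXT group. Of 4 markers of activated stellate cells, Acta2 and Timp1 fell (log2 fold changes -0.99 and -2.29, adjusted p = 0.0427 and 0.0444 in edgeR), and the sum of the list was 182 to 359 CPM in AAV8-GFP against 24.0 to 151 CPM in the AAV8-AGXT group. Of 7 macrophage markers, Cd9 fell (log2 fold change -1.03, adjusted p = 0.0298 in edgeR) and 6 had fold changes below 0, with sums of 504 to 1031 and 140.8 to 505 CPM. Spp1 alone held 201 to 611.5 CPM of these sums in the AAV8-GFP and 60.3 to 239 CPM in the AAV8-AGXT group. Only Cd9 and Cd68 were lower in every AAV8-AGXT mouse. The general macrophage marker Adgre1 had a log2 fold change of 0.13 and Csf1r one of -0.27, and both overlapped between groups. Of 3 adipocyte markers only Cfd was tested and it rose (log2 fold change 1.93, adjusted p = 0.0487 in edgeR), while the defining Adipoq and Plin1 stayed under 0.4 CPM in every mouse. None of the 5 Kupffer cell, 6 stellate cell, 5 sinusoidal endothelial, 4 cholangiocyte, 4 T and NK cell, 3 B cell or 3 neutrophil markers passed the test in edgeR, where 11 of them had an unadjusted p under 0.05. For these 7 lists DESeq2 called 1 marker higher and 6 lower, and limma-voom called 0. The median log2 fold change was below 0 for the cholangiocyte (-1.24), T and NK cell (-0.89), neutrophil (-0.79), B cell (-0.47) and stellate cell list (-0.12). It was above 0 for the sinusoidal endothelial (0.22) and Kupffer cell list (0.45), where the scavenger receptor Marco did not overlap, at 0.554 to 5.65 CPM in the AAV8-GFP and 5.94 to 156 CPM in the AAV8-AGXT group. Mouse 319 held that highest value and the highest sum of the Kupffer cell markers, 740 CPM against 180 to 314 CPM in the other AAV8-AGXT mice. The marker calls were not stable to the loss of a mouse, and neither were those of the whole table. Without mouse 311, 314 or 319 edgeR called none of Cps1, Cd9, Acta2, Timp1 and Cfd. Acta2 was called in 0 of the 8 fits that left out a mouse. Over all genes edgeR called 2 higher and 0 lower without mouse 311, and 11 and 4 without mouse 314. Without mouse 319 it called 12 and 2, against 374 and 290 with all 8 mice. Cfd also lost its call under each other scaling. The part of these shifts in the values of the receptors was not tested.

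Per kilobase of exon, Hnf4a and Rxra stood far above the rest of the 33 receptors. Averaged over the 8 mice, Hnf4a had 136 ± 26.3 and Rxra 83.7 ± 24.8 CPM per kilobase (SD, n = 8). Outside the 33, the bile acid receptor gene Nr1h4 had 66.9 ± 14.4 CPM per kilobase (SD, n = 8), within the spread of Rxra. Further receptor genes outside the 33 also lay between Rxra and the next of the 33. Next among the 33 came Nr1h2 at 19.7 ± 2.04 and Nr2f6 at 19.6 CPM per kilobase, which differed by less than their spread, then Rxrb at 12.5, Rara at 10.5, Nr4a1 at 9.88 and Esrra at 9.87, where Rara, Nr4a1 and Esrra were again within their spread of one another. Nr5a2, Pparg, Nr3c1 and Thra lay between 5.25 and 7.69 CPM per kilobase. The lowest receptors that were tested were Nr4a3 at 0.193, Rarb at 0.123 and Esrrb at 0.101 CPM per kilobase. With the longest transcript in place of all exons as the length, the first 5 receptors kept their places. Nr2f6 shares 54.4% of its exon length with Ocel1 and Rarb 34.1% with Top2b, each on the opposite strand. Since the strand setting of the counting is not stated, the levels and places of Nr2f6 and Rarb are uncertain.

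**Figure D2:**
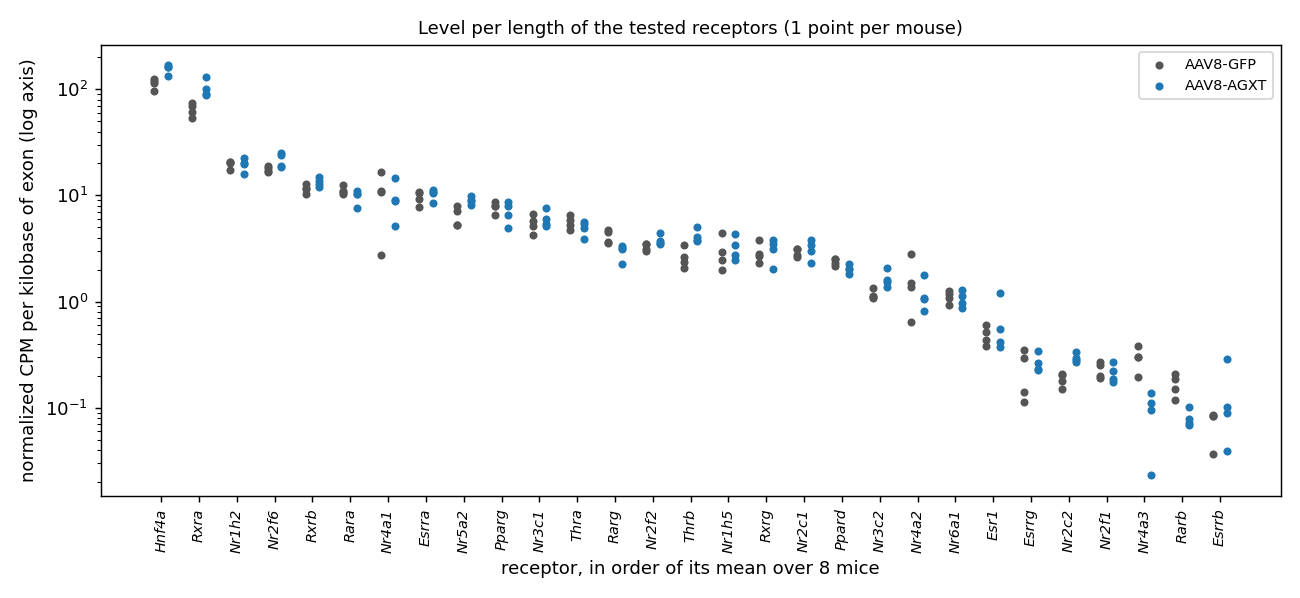
Normalized CPM per kilobase of exon, on a log axis, for the 29 tested receptors in order of their mean over 8 mice, with 1 point per mouse. Hnf4a and Rxra lead at 136 and 83.7 CPM per kilobase, and Esrrb is last at 0.101.

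The other 4 receptors were below the low-count filter and under 1 CPM in every mouse. These were Hnf4g (0 to 13 counts), the second HNF4 gene; Vdr (0 to 17 counts), the vitamin D receptor; Pgr (0 to 4 counts), the progesterone receptor; and Nr2e3, a retinal receptor. No read pair was counted on Nr2e3 in any of the 8 mice, which allows up to 3 counts per library when only counting error is considered.

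Among the receptors for metabolic and lipid signals, Hnf4a and Nr5a2 were higher in every AAV8-AGXT mouse, and the LXR, FXR-related and PPAR members overlapped between groups. Hnf4a (ENSMUSG00000017950, chromosome 2, 163506808 to 163572910 in GENCODE M21 on GRCm38, as for all positions of genes here) encodes the factor that maintains hepatocyte identity. It had 465, 550.4, 583 and 607 CPM in AAV8-GFP mice 303, 311, 314 and 315, and 786, 814, 649 and 782 CPM in mice 308, 309, 316 and 319 of the AAV8-AGXT group, the order used for every receptor below. The lowest AAV8-AGXT mouse, 316, was thus above the highest AAV8-GFP mouse, 315. The log2 fold change was 0.46 (standard error 0.13, 95% interval 0.16 to 0.76), with an adjusted p of 0.0765 in edgeR and 0.00651 in DESeq2. The hepatocyte marker sums given above moved the same way.

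Nr5a2 (ENSMUSG00000026398, chromosome 1, 136842571 to 136960448) encodes LRH-1, which takes part in bile acid synthesis and cholesterol transport. AAV8-GFP mice had 31.2, 31.3, 42.35 and 46.6 CPM and AAV8-AGXT mice 57.65, 53.4, 48.2 and 52.1 CPM. Mice 303 and 311 were the lowest, whereas AAV8-GFP mouse 315 lay just under AAV8-AGXT mouse 316. The fitted log2 fold change was 0.48 (95% interval 0.16 to 0.80, adjusted p = 0.0795 in edgeR). Without mouse 315 it was 0.60 (adjusted p = 0.0491 in edgeR), and only this 1 of the 8 fits that left out a mouse called Nr5a2. Over those 8 fits the adjusted p in edgeR ran from 0.0491 to 0.222.

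Nr1h2, the oxysterol receptor LXR beta, is found in most tissues. Its level was 69.0, 68.4, 58.6 and 68.7 CPM in the AAV8-GFP group and 75.3, 53.3, 67.85 and 66.6 CPM in the AAV8-AGXT group. The groups overlapped, and the log2 fold change of -0.01 had a 95% interval of -0.27 to 0.25 (adjusted p = 0.970 in edgeR). Nr1h5, or FXR beta, a relative of the bile acid receptor, had 5.67 to 12.5 CPM in the AAV8-GFP group and 7.03 to 12.2 CPM in the AAV8-AGXT group (log2 fold change 0.12, 95% interval -0.45 to 0.70).

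Pparg, which drives lipid storage, had 23.3, 23.3, 25.8 and 19.2 CPM in the AAV8-GFP group and 14.5, 25.7, 23.5 and 19.5 CPM in the AAV8-AGXT group. Mouse 308 was the lowest of all 8, and the remaining 7 were mixed (log2 fold change -0.14, 95% interval -0.53 to 0.25, adjusted p = 0.655 in edgeR). Ppard, a fatty acid receptor of broad expression, ranged from 16.4 to 18.8 CPM in the AAV8-GFP group and from 13.6 to 17.1 CPM in the AAV8-AGXT group. Its log2 fold change of -0.23 (95% interval -0.47 to 0.02) had an adjusted p of 0.218 in edgeR, and of 0.0484 when only library totals were used for scaling. For comparison, Ppara, the fasting and fatty acid oxidation receptor, which is not one of the 33, rose from 43.3 ± 5.06 to 80.1 ± 22.1 CPM (± SD, 4 mice per group; log2 fold change 0.89, adjusted p = 0.0376 in edgeR).

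In the retinoid group Rxra was higher, and the retinoic acid receptor (RAR) genes Rarb and Rarg were lower, in every AAV8-AGXT mouse, without passing the adjusted threshold. Rxra (ENSMUSG00000015846, chromosome 2, 27676440 to 27762957) encodes the shared partner with which RAR, thyroid hormone, LXR, FXR and PPAR receptors pair. It had 292, 333, 401 and 383 CPM in AAV8-GFP mice and 553, 485, 494 and 714.5 CPM in the AAV8-AGXT group. Mouse 319 was well above the other AAV8-AGXT mice, and even the lowest of them, 309, exceeded the highest control, 314. The log2 fold change was 0.67 (standard error 0.16, 95% interval 0.31 to 1.04), with an unadjusted p of 0.00221 and an adjusted p of 0.0502 in edgeR. Among the alternatives, DESeq2, limma-voom, robust estimation and the fit without a low-count filter called Rxra, and with each mouse left out the adjusted p ran from 0.0503 to 0.169.

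The other RXR genes overlapped. Rxrb, the broadly expressed isotype, had 45.4, 47.0, 41.3 and 51.0 CPM in the AAV8-GFP group and 59.0, 47.95, 50.7 and 53.8 CPM in the AAV8-AGXT group. Only AAV8-AGXT mice 308 and 319 exceeded all controls (log2 fold change 0.19, 95% interval -0.03 to 0.42). Rxrg, best known from muscle and brain, ranged from 5.26 to 8.75 and from 4.69 to 8.77 CPM (log2 fold change 0.10, 95% interval -0.40 to 0.61). Both fold changes turned negative when library totals alone set the scale.

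Rarg (ENSMUSG00000001288, chromosome 15, 102234938 to 102257517), the RAR isotype best known from skin, had 19.1, 15.5, 19.97 and 15.2 CPM in the AAV8-GFP group and 13.4, 14.2, 13.5 and 9.67 CPM in the AAV8-AGXT group. All 4 AAV8-AGXT mice were below the lowest control, mouse 319 most clearly. The log2 fold change was -0.46 (95% interval -0.80 to -0.12, adjusted p = 0.103 in edgeR and 0.0473 in DESeq2). Rarb (ENSMUSG00000017491, chromosome 14, 16430839 to 16819156) is itself a classic target of retinoic acid and was scarce, with 6 to 32 counts per mouse. It had 1.09, 0.98, 0.784 and 0.618 CPM in the AAV8-GFP group and 0.414, 0.541, 0.36 and 0.378 CPM in the AAV8-AGXT group. The groups did not overlap (log2 fold change -1.05, 95% interval -1.76 to -0.35, adjusted p = 0.0795 in edgeR). Rarb shares 34.1% of its exon length with Top2b on the opposite strand, and since the strand setting of the counting is not stated, its values are uncertain. Top2b itself had 32.8 and 33.8 CPM on average in the AAV8-GFP and AAV8-AGXT groups.

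Rara, the main RAR isotype here, had 47.2, 48.0, 44.9 and 54.5 CPM in the AAV8-GFP group and 44.9, 33.5, 48.0 and 44.8 CPM in the AAV8-AGXT group. AAV8-AGXT mouse 309 was the lowest, 308 and 319 lay close to the lowest control and 316 lay among the controls (log2 fold change -0.19, 95% interval -0.46 to 0.09, adjusted p = 0.369 in edgeR).

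**Figure D3:**
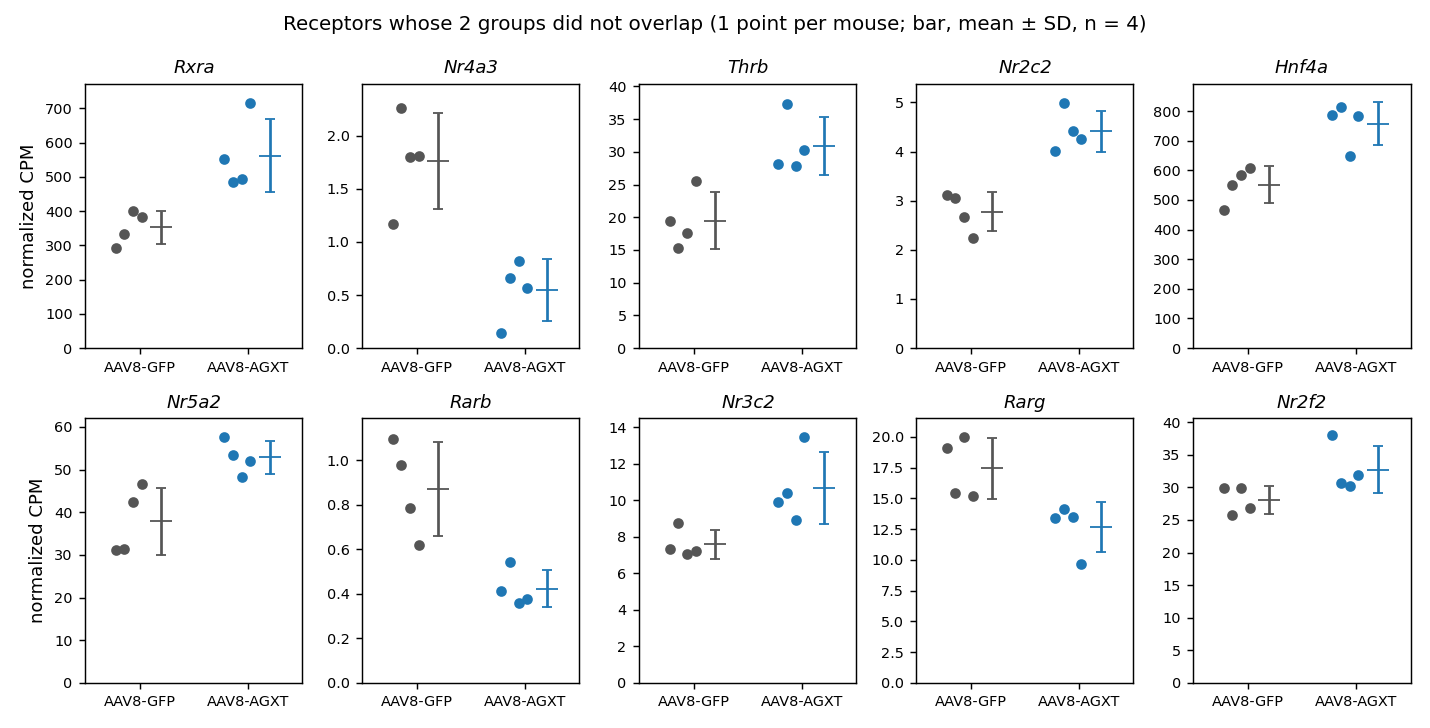
Normalized CPM of each mouse (points) with mean ± SD (bar, n = 4) for the 10 receptors whose groups did not overlap, in order of p-value from Rxra to Nr2f2. In Nr4a3, Rarb and Rarg the AAV8-AGXT mice are the lower group and in the other 7 they are the higher group.

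Of the hormone receptors outside the steroid class, Thrb was higher in every AAV8-AGXT mouse and Thra was not. Thrb (ENSMUSG00000021779, chromosome 14, 17660261 to 18038090) encodes thyroid hormone receptor beta, the isotype through which thyroid hormone mainly acts in liver. It had 19.5, 15.3, 17.6 and 25.5 CPM in the AAV8-GFP group and 28.2, 37.4, 27.8 and 30.2 CPM in the AAV8-AGXT group. Mouse 309 was the highest, and the highest control, 315, came close to mouse 316. The log2 fold change was 0.67 (standard error 0.17, 95% interval 0.29 to 1.04, adjusted p = 0.0537 in edgeR, 0.00874 in DESeq2 and 0.0463 in limma-voom). Without mouse 315 it was 0.83 (adjusted p = 0.0334 in edgeR), and only this 1 of the 8 fits that left out a mouse called Thrb. Over those 8 fits the adjusted p in edgeR ran from 0.0334 to 0.176.

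Thra, thyroid hormone receptor alpha, had 30.0, 24.2, 26.9 and 21.6 CPM in the AAV8-GFP group and 25.75, 22.7, 24.6 and 18.03 CPM in the AAV8-AGXT group. The groups overlapped (log2 fold change -0.18, 95% interval -0.50 to 0.14, adjusted p = 0.467 in edgeR). Thra shares 5.7% of its exon length with Nr1d1, the clock repressor REV-ERB alpha, on the opposite strand. Nr1d1 averaged 72.4 ± 24.2 CPM in the AAV8-GFP group and 116.7 ± 21.4 CPM in the AAV8-AGXT group (SD, n = 4 each; log2 fold change 0.69, adjusted p = 0.102 in edgeR), so the Thra values are uncertain.

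Receptors can be regulated by receptors, and 4 of the 10 non-overlapping genes hold the half-site AGGTCA, or TGACCT on the other strand, within the 250 bases before a RefSeq start site. Their stretches are shown so that the half-sites can be seen in place, 5′ to 3′ on the strand of the gene, build GRCm38.p6, with the half-site in capitals. Where an exon of GENCODE M21 covers part of the 250 bases, that part is left out.
Rxra, chr2:27709042-27709291, plus strand: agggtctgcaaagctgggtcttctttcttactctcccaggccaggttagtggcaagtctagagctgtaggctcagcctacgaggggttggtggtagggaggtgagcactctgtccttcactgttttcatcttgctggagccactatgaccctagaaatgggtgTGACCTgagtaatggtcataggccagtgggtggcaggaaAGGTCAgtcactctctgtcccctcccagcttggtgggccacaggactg
Thrb, chr14:17660710-17660891, plus strand: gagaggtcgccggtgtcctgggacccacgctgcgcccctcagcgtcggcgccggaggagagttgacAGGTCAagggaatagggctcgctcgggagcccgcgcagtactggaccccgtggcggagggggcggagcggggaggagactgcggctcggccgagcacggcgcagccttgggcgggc
Nr5a2, chr1:136960449-136960698, minus strand: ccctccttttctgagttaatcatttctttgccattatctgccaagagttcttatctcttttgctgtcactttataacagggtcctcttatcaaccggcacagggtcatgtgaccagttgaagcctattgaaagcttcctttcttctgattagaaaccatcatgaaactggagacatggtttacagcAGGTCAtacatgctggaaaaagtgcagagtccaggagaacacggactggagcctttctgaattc
Rarg, chr15:102257523-102257772, minus strand: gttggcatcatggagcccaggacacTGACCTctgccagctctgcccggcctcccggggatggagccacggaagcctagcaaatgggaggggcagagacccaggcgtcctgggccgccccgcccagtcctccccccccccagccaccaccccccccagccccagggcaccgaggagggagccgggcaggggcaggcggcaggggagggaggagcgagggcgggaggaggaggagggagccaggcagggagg
Rxra holds the half-site in both orientations before a start site at 27709292, inside the gene. The start site used for Thrb, at 17660960, also lies inside the gene as annotated in GENCODE M21. Over all 32851 RefSeq windows of this length, 14.0% hold the half-site, and of the 49 windows of 30 receptors with an entry, 8 windows or 16.3% do. Counted by gene, 15.8% of all genes and 7 of the 30 receptors hold it, and 3 of those 7, Nr6a1, Pparg and Rxrg, overlapped between groups. A match of these letters is a description of sequence only.

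The 3 tested steroid receptors had fitted fold changes above 0, except that of Nr3c1 when library totals alone set the scale and that of Esr1 without mouse 319. Of these, the groups did not overlap for Nr3c2. Nr3c2 (ENSMUSG00000031618, chromosome 8, 76899442 to 77245012), the mineralocorticoid receptor, had 7.34, 8.75, 7.06 and 7.19 CPM in the AAV8-GFP group and 9.87, 10.4, 8.94 and 13.45 CPM in the AAV8-AGXT group. The gap was narrow, since control 311 lay just below AAV8-AGXT mouse 316. Its log2 fold change was 0.49 (95% interval 0.14 to 0.85, adjusted p = 0.0944 in edgeR). Nr3c2 shares 3.82% of its exon length with Gm10649 on the opposite strand. Nr3c1, the glucocorticoid receptor, had 32.7, 39.2, 50.8 and 44.2 CPM in the AAV8-GFP group and 41.6, 58.65, 39.3 and 46.4 CPM in the AAV8-AGXT group. The groups were mixed (log2 fold change 0.16, 95% interval -0.21 to 0.52, adjusted p = 0.578 in edgeR), and scaling by totals alone gave -0.075. Esr1, oestrogen receptor alpha, ranged from 5.20 to 8.16 CPM in the AAV8-GFP group and from 5.11 to 16.6 CPM in the AAV8-AGXT group. The highest value was that of mouse 319, without which the log2 fold change of 0.42 (95% interval -0.37 to 1.20) became -0.10.

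No oestrogen-related receptor separated the groups. Esrra, which drives mitochondrial gene expression together with PGC-1 coactivators, had 47.1, 45.85, 33.8 and 40.7 CPM in the AAV8-GFP group and 48.9, 37.3, 45.8 and 46.8 CPM in the AAV8-AGXT group. The groups overlapped (log2 fold change 0.09, 95% interval -0.20 to 0.38, adjusted p = 0.689 in edgeR). Esrrg, the isotype of muscle and heart, ranged from 0.706 to 2.19 and from 1.42 to 2.11 CPM (log2 fold change 0.23, 95% interval -0.61 to 1.06). Esrrb, known from pluripotent cells, stayed under 2 CPM, with 5 to 25 counts per mouse and its highest value, 1.73 CPM, in mouse 308 (log2 fold change 0.76, 95% interval -0.50 to 2.02). Without mouse 308 the log2 fold change was 0.036.

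The NR4A genes are immediate early genes that respond within minutes to hours to hormonal and stress signals, and their levels varied widely between mice. Nr4a3 (ENSMUSG00000028341, chromosome 4, 48045153 to 48086447) was the receptor with the most negative fold change. It had 1.17, 2.265, 1.80 and 1.81 CPM in the AAV8-GFP group and 0.138, 0.661, 0.822 and 0.566 CPM in the AAV8-AGXT group. All AAV8-AGXT mice were below the lowest control, and mouse 308 was lowest. These values rest on 30 to 74 counts per AAV8-GFP mouse and 2 to 16 per AAV8-AGXT mouse. The log2 fold change was -1.65 (standard error 0.41, 95% interval -2.58 to -0.74), with an adjusted p of 0.0528 in edgeR and 0.00348 in DESeq2.

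Nr4a1, the most abundant NR4A gene, had 38.5, 37.7, 9.73 and 58.4 CPM in the AAV8-GFP group and 31.8, 31.3, 51.7 and 18.3 CPM in the AAV8-AGXT group. Both extremes were controls, mice 314 and 315 (log2 fold change -0.12, 95% interval -1.14 to 0.90, adjusted p = 0.895 in edgeR). Nr4a2 ranged from 2.63 to 11.3 CPM in the AAV8-GFP group and from 3.31 to 7.19 CPM in the AAV8-AGXT group (log2 fold change -0.41, 95% interval -1.30 to 0.48), and its lowest and highest values were again those of mice 314 and 315. Of 8 other immediate early genes, edgeR called 0 higher and 0 lower and 1 had an unadjusted p under 0.05, while DESeq2 called 1 lower and limma-voom 0. The smallest p-values were those of the AP-1 subunit Fosb (log2 fold change -1.90, adjusted p = 0.111 in edgeR) and of Ier2 (0.82, adjusted p = 0.278). Ier2 had 289 CPM in mouse 309, against 65.0 to 108 CPM in the other AAV8-AGXT mice and 47.5 to 85.6 CPM in the AAV8-GFP group. Mouse 309 also had the highest sum of these 8 genes, 2373 CPM, where the other AAV8-AGXT mice had 413 to 753 CPM.

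Each NR4A gene holds 4 copies of the cAMP response half-site TGACG, or CGTCA on the other strand, in the 250 bases before its RefSeq start site. They are shown, half-sites in capitals, because NR4A genes are textbook targets of cAMP signalling, again 5′ to 3′ on the strand of the gene and without bases that lie in an exon of GENCODE M21.
Nr4a1, chr15:101266596-101266845, plus strand: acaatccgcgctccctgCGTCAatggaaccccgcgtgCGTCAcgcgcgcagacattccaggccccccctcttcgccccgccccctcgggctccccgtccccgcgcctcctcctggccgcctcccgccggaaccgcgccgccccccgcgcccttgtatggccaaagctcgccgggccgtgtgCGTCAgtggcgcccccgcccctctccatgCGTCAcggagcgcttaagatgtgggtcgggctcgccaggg
Nr4a2, chr2:57124004-57124253, minus strand: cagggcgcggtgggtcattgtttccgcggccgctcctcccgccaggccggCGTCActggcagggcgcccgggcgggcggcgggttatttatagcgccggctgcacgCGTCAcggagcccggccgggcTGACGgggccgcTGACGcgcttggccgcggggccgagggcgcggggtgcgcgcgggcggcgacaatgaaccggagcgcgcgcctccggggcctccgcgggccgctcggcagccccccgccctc
Nr4a3, chr4:48045055-48045152, plus strand: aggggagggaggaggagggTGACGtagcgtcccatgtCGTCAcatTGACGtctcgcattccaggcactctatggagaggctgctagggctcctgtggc
For Nr4a3 the fourth copy lies in the 152 bases left out. The start sites used for Nr4a1, at 101266846, and for Nr4a3, at 48045305, lie inside the genes as annotated in GENCODE M21. Over all windows of this length 17.8% hold the half-site, and 10 of the 49 receptor windows, or 20.4%, do. Counted by gene, 19.8% of all genes and 10 of the 30 receptors with an entry hold it. How many windows hold 4 copies was not counted. Nr4a1 and Nr4a2 carry as many copies as Nr4a3 but overlapped between groups, and no statement about a factor follows from the letters.

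Among the orphan receptors, Nr2c2 and Nr2f2 were higher in every AAV8-AGXT mouse. Nr2c2 (ENSMUSG00000005893, chromosome 6, 92091390 to 92174294) encodes TR4, which binds paired half-sites as a homodimer or with its relative TR2. It had 3.12, 3.06, 2.675 and 2.25 CPM in the AAV8-GFP group and 4.004, 4.99, 4.42 and 4.25 CPM in the AAV8-AGXT group. The groups were well apart, and the log2 fold change was 0.66 (95% interval 0.26 to 1.07, adjusted p = 0.0677 in edgeR and 0.0179 in DESeq2). Nr2c2 shares 30.7% of its exon length with Mrps25 on the opposite strand, which averaged 14.3 and 14.9 CPM in the AAV8-GFP and AAV8-AGXT groups, and is uncertain for that reason. Its relative Nr2c1, or TR2, averaged 13.4 ± 1.28 and 14.4 ± 2.89 CPM (SD, n = 4 each) (log2 fold change 0.11, 95% interval -0.24 to 0.46).

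Nr2f2 (ENSMUSG00000030551, chromosome 7, 70351944 to 70366735) encodes COUP-TFII, a repressor active in venous endothelium and mesenchyme as well as in liver. It had 29.9, 25.7, 29.85 and 26.8 CPM in the AAV8-GFP group and 38.04, 30.7, 30.25 and 31.85 CPM in the AAV8-AGXT group. The lowest AAV8-AGXT mouse, 316, was only slightly above the highest control, 303. Its log2 fold change of 0.22 had a 95% interval of -0.02 to 0.46 (adjusted p = 0.229 in edgeR), and with library totals alone it was -0.025. Nr2f2 shares 7.46% of its exon length with B130024G19Rik on the opposite strand, so its values are uncertain. B130024G19Rik averaged 3.93 and 3.10 CPM in the AAV8-GFP and AAV8-AGXT groups. Nr2f6, or EAR2, had 53.65, 50.05, 51.1 and 56.1 CPM in the AAV8-GFP group and 71.0, 56.0, 54.7 and 75.2 CPM in the AAV8-AGXT group. Mice 308 and 319 were clearly above the controls and 309 and 316 were among them (log2 fold change 0.29, 95% interval 0.02 to 0.55, adjusted p = 0.169 in edgeR). Of the exon length of Nr2f6, 54.4% is shared with Ocel1 on the opposite strand, so this value too is uncertain. Nr2f1, or COUP-TFI, and Nr6a1, the germ cell nuclear factor, had near-equal means, 1.16 and 1.09 CPM for Nr2f1 and 12.01 and 11.5 CPM for Nr6a1 in AAV8-GFP and AAV8-AGXT mice, with 95% intervals of the log2 fold change of -0.66 to 0.50 and -0.41 to 0.29.

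Since isotypes of a family share DNA sites and ligands, their levels per kilobase of exon were also set against one another within each mouse. Rxra made up 81.4 ± 3.08% of the RXR level in AAV8-GFP and 86.1 ± 1.78% in AAV8-AGXT mice, Rara 72.3 ± 4.18% and 76.0 ± 5.12% of the RAR level (SD, n = 4 each). Thrb made up 32.1 ± 6.85% of the thyroid hormone receptor level in AAV8-GFP and 45.9 ± 5.75% in AAV8-AGXT mice (SD, n = 4 each). Both groups overlapped, since control 315 reached 42.4% and the lowest AAV8-AGXT mouse had 40.5%. The share of Pparg in the PPAR level was 32.9 to 39.1% in AAV8-GFP and 15.3 to 32.1% in AAV8-AGXT mice, and that of Ppard 9.17 to 12.6% and 5.17 to 7.9%, both without overlap, beside the rise of Ppara given above. Shares within a family depend on one another, and the CPM of Pparg and of Ppard overlapped between groups. Hnf4g made up at most 0.133% of the HNF4 level in any mouse, the rest being Hnf4a. With the longest transcript as the length, the Thrb share was 23.2% and 35.1% on average.

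**Figure D4:**
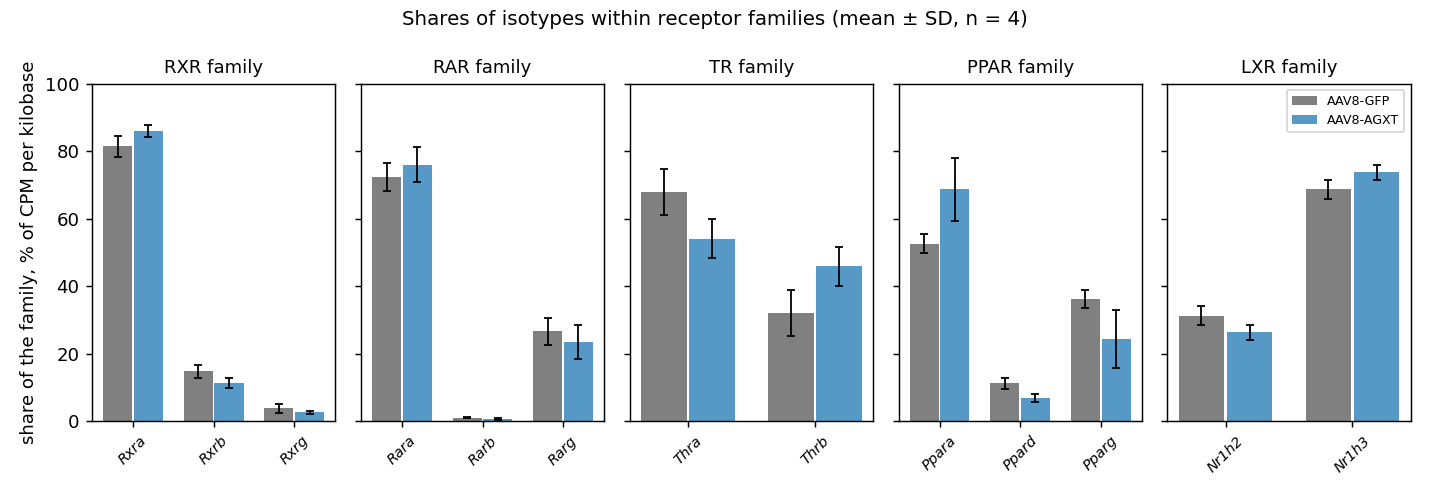
Share of each isotype in the summed CPM per kilobase of its family, in percent, as mean ± SD over 4 mice per group (bars and error bars). Thrb goes from 32.1% to 45.9% of the thyroid hormone receptor level and Pparg from 36.2% to 24.4% of the PPAR level between AAV8-GFP and AAV8-AGXT mice. Shares within a family depend on one another, and the CPM of Pparg itself overlapped between groups (log2 fold change -0.14).

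Of 16 further nuclear receptors that are not among the 33, 11 were tested and 2 rose in AAV8-AGXT mice in edgeR, Ppara among them. The median log2 fold change of these 11 was 0.35, with 10 above 0. In the fits without mouse 303, 311, 314, 308 or 319 edgeR called none of them, and without mouse 315 Ppara was not called either. Calls over all genes also fell, to 114 higher and 79 lower without mouse 303 and 86 and 91 without mouse 308. They were fewer still without mouse 311, 314 or 319, as given above.

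None of the 16 coactivators and 10 corepressors listed passed the test in edgeR. The corepressor Hr, listed as a thyroid hormone receptor target, is described below. Of 16 coactivators edgeR called 0 higher and 0 lower, with a median log2 fold change of 0.11 and 4 at an unadjusted p under 0.05, whereas DESeq2 called 2 higher and limma-voom 1. The smallest p-values in edgeR were those of Ppargc1b (PGC-1 beta, log2 fold change 1.15, adjusted p = 0.0610) and Kat2b (an acetyltransferase, 0.35, adjusted p = 0.0822). Of 10 corepressors edgeR called 0 in either direction, with a median of 0.03 and 1 at an unadjusted p under 0.05, DESeq2 called 1 lower and limma-voom 0. Gps2, a subunit of the NCoR complex, had a log2 fold change of -0.37 (adjusted p = 0.0852 in edgeR), followed by Ncor1 itself at 0.23 (adjusted p = 0.226).

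Among genes that make, move or remove the ligands, Rdh16 rose and Aldh1a2 and Serpina7 fell in edgeR. Of 13 tested retinoid genes, Rdh16, a retinol dehydrogenase, rose (106.1 ± 12.1 to 161.9 ± 14.7 CPM, ± SD, 4 mice per group; log2 fold change 0.61, adjusted p = 0.0349 in edgeR), and Aldh1a2, which makes retinoic acid, fell (1.36 ± 0.54 to 0.399 ± 0.185 CPM, ± SD, 4 mice per group; log2 fold change -1.81, adjusted p = 0.0465 in edgeR). In this list 7 of the 13 had an unadjusted p under 0.05, DESeq2 called 4 higher and 2 lower, and limma-voom 1 higher and 0 lower. Of 6 tested thyroid hormone genes, Serpina7, the thyroxine-binding globulin of plasma, fell from 240.0 ± 61.3 to 97.0 ± 35.9 CPM (± SD, 4 mice per group; log2 fold change -1.31, adjusted p = 0.0449 in edgeR). There 3 of the 6 had an unadjusted p under 0.05, DESeq2 called 2 higher and 1 lower, and limma-voom 1 higher and 1 lower. Aldh1a2 rested on 21 to 61 counts per AAV8-GFP mouse and 5 to 9 per AAV8-AGXT mouse, so a filter of at least 10 counts in every mouse removed it. Of the 8 edgeR fits that left out a mouse, 1 called Aldh1a2, 2 called Serpina7 and 3 called Rdh16. In edgeR fits without mouse 303, 311, 314 or 319 none of Rdh16, Aldh1a2 and Serpina7 was called, and scaling by total counts ended the call of Rdh16. Calls over the whole table fell in the same fits, as given above. Of 11 genes of steroid and vitamin D handling none passed in edgeR, 2 had an unadjusted p under 0.05, and DESeq2 called 2 higher and limma-voom 0. The smallest p-values in edgeR were those of Hsd11b1, which regenerates active glucocorticoid (log2 fold change 0.88, adjusted p = 0.0641), and Cyp27a1, a sterol hydroxylase (0.43, adjusted p = 0.0868).

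Among target genes of the receptors, Fkbp5, Slc10a1 and Acadm rose and Hr fell in edgeR. For the glucocorticoid receptor 1 of 12 rose, Fkbp5, a chaperone of that receptor, from 26.7 ± 6.35 to 68.9 ± 21.3 CPM (± SD, 4 mice per group; log2 fold change 1.37, adjusted p = 0.0283 in edgeR), while Nr3c1 itself overlapped. For thyroid hormone receptors 1 of 6 fell, Hr, a corepressor induced by thyroid hormone, from 15.6 ± 4.05 to 5.86 ± 2.06 CPM (± SD, 4 mice per group; log2 fold change -1.41, adjusted p = 0.0341 in edgeR), in mice where Thrb had a fold change above 0. For HNF4 alpha 1 of 13 rose, Slc10a1, the bile acid importer NTCP, from 239.5 ± 41.5 to 467 ± 41.0 CPM (± SD, 4 mice per group; log2 fold change 0.96, adjusted p = 0.0246 in edgeR), and 11 of 13 had fold changes above 0 with a median of 0.31. For oestrogen-related receptors 1 of 10 rose, Acadm, a fatty acid oxidation enzyme (log2 fold change 0.63, adjusted p = 0.0411 in edgeR), and 8 of 10 were above 0 with a median of 0.26. Of the glucocorticoid receptor targets 9 of 12 were above 0 with a median of 0.27. Of the thyroid hormone receptor targets 3 of 6 were above 0 with a median of 0.005. Over all genes tested 52.28% were above 0, with a median of 0.02. DESeq2 called 1 glucocorticoid receptor target, 3 HNF4 alpha targets and 4 oestrogen-related receptor targets higher and 1 thyroid hormone receptor target lower, and limma-voom 1, 1, 2 and 1. Without mouse 311, 314 or 319 edgeR called none of these 4 genes, and few genes of the whole table, as given above. Fkbp5 and Slc10a1 passed in the other 5 fits that left out a mouse, whereas Hr was also lost without mouse 303 or 308, and Acadm passed in 1 of the 8 such fits and not with total counts only.

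In the remaining target lists edgeR called 0 genes in either direction, and so did limma-voom. At an unadjusted p under 0.05 in edgeR were 2 PPAR gamma, 3 retinoic acid receptor, 1 LRH-1 and 2 LXR targets. DESeq2 called 2 PPAR gamma targets lower, 1 retinoic acid receptor target higher and 2 lower, 1 LXR target lower and 0 LRH-1 targets. Of 9 PPAR gamma targets, Lpl (lipoprotein lipase, log2 fold change -0.98, adjusted p = 0.0756) and Aqp7 (a glycerol channel, -1.11, adjusted p = 0.124) had the smallest p-values, and the median was -0.02. Of 5 tested targets of retinoic acid receptors, Tgm2 (transglutaminase, -0.71, adjusted p = 0.0595) had the smallest p-value, 4 were below 0 and the median was -0.45. Of 6 LRH-1 targets, Cyp8b1 (a bile acid enzyme, 1.52, adjusted p = 0.0883) and Cyp7a1 (the rate-limiting enzyme of that pathway, 0.96, adjusted p = 0.364) led, with a median of 0.28. Of 8 LXR targets, Srebf1 (the lipogenic factor SREBP1, -0.81, adjusted p = 0.104) and Abca1 (a cholesterol exporter, 0.54, adjusted p = 0.127) led, with a median of 0.18. Some genes stand in more than one of these lists, and the lists were chosen with results of these data known.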

How the data were processed

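Livers of 8 mice were sequenced as stranded mRNA libraries, 1 per mouse, and mice were grouped by the treatment in the labels. According to the methods and the submitters' processing notes, the authors checked reads with FastQC 0.11.8 and trimmed reads with Trimmomatic 0.35, then used HISAT2 2.1.0.13 for alignment to GRCm38 and HTSeq for counting on genes. The strand setting of the counting is not given in the sources used here. The deposited values are raw counts per Ensembl gene, without normalization. Of 52636 genes, 52489 were matched to GENCODE M21, which supplied names, positions and exon lengths. Tallies of read pairs on no gene were left out of the fits.

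In R 4.3.3, edgeR 4.0.16 (filterByExpr, TMM factors, quasi-likelihood fit and test, treatment as the only term) tested 15248 genes, with Benjamini-Hochberg adjustment over all of them and a threshold of 0.05. TMM factors were 1.02 to 1.14 in AAV8-GFP and 0.83 to 1.00 in AAV8-AGXT mice, and the common biological coefficient of variation was 23.3%. Precision differed between receptors, with standard errors of the log2 fold change from 0.10 for Rxrb to 0.57 for Esrrb. Levels between genes are CPM per kilobase of the union of exons. Alternatives were the Wald test of DESeq2 1.42.0, limma-voom in limma 3.58.1, other scalings and filters, robust estimation and each mouse left out. Sequences are from RefSeq on GRCm38.p6.

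The receptors, their roles and all other gene lists were chosen with earlier results of these data known. Every receptor is named. Values in every mouse are given for receptors whose groups did not overlap or with more than 20 CPM on average. Of each other list, up to 4 genes with an adjusted p under 0.05, or else the 2 with the smallest p, are named. Some genes that this rule names are not reported here and stay in the counts of their lists. The labels give no litters or cages, so these could not enter the fits. The p-values set each difference between groups against the spread between mice within groups, with the mice taken as independent.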

Additional observations from a re-analysis of the deposited data

Results flagged for a closer look

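In 3 of the 58 groups of 4 mice examined, 1 control mouse lay far from the other 3, with a gap above 0.829 of the range of its group. Chance flags about 1 group in 20. Nr1h2 was at 58.6 CPM in AAV8-GFP mouse 314 and between 68.4 and 69.0 CPM in the other AAV8-GFP mice. Nr3c2 was at 8.75 CPM in AAV8-GFP mouse 311 and between 7.06 and 7.34 CPM in the others, which narrowed its gap to the AAV8-AGXT mice. Esrrb was at 0.221 CPM in AAV8-GFP mouse 315 and between 0.507 and 0.52 CPM in the others, where a mouse had 5 to 17 counts.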

How the results depend on the processing

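The count of receptors past the adjusted threshold, 0 higher and 0 lower, was 5 and 2 with DESeq2, 2 and 0 with limma-voom, 2 and 1 without the low-count filter (beside 1.46% and 1.52% of all genes), 1 and 0 with robust estimation (2.58% and 1.91%), and 0 and 3 with total counts only. With DESeq2's size factors, upper-quartile factors or at least 10 counts in every mouse it stayed 0. With each mouse left out it was 0 to 2 higher, the 2 without AAV8-GFP mouse 315 (Nr5a2 and Thrb), and 0 lower. Receptors whose groups did not overlap, 7 higher and 3 lower, were 2 and 5 with total counts only. Over all genes, 374 were called higher and 290 lower, which became 1077 and 1054 with DESeq2 and 144 and 857 with total counts only. With each mouse left out they were 2 to 379 and 0 to 325, lowest without AAV8-GFP mouse 311. The cause of these differences was not tested.

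None of the 10 receptors with an unadjusted p under 0.05 changed sign under any alternative. Among the others, total counts only turned Nr1h5 to -0.11, Rxrb to -0.048, Rxrg to -0.15, Nr3c1 to -0.075, Esrra to -0.15, Esrrg to -0.016, Nr2f2 to -0.025 and Nr2c1 to -0.13 on the log2 scale, and limma-voom turned Nr4a1 to 0.031. With a mouse left out, 10 receptors crossed 0. Their log2 fold changes ran from -0.094 to 0.059 for Nr1h2, -0.045 to 0.38 for Nr1h5, -0.019 to 0.26 for Rxrg, -0.10 to 0.59 for Esr1, -0.019 to 0.16 for Esrra, -0.45 to 0.21 for Nr4a1, -0.68 to 0.015 for Nr4a2, -0.22 to 0.004 for Nr2f1, -0.015 to 0.23 for Nr2c1 and -0.17 to 0.032 for Nr6a1. Esrrb went from 0.76 to 0.036 without AAV8-AGXT mouse 308. No paired analysis was possible because the animal numbers differ between the groups. The levels per kilobase of 19 of the 33 receptors moved by more than their SD with the longest transcript as the length. Receptors with few counts, such as Nr4a3, Rarb and Esrrb, are limited by depth as well as by the number of mice.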
